A study of Mus musculus with 40 samples.

Results

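Transcription and chromatin regulators of male meiosis, and of the haploid stage after it, were followed through 40 single mouse germ cells. The 10 genes were Mybl1, Tcfl5, Ovol1, Brdt, Rfx2, Crem, Sox30, Egr4, Fev and Msx2. They were taken as a list of names, with no threshold on their values, and each was found among the 55492 genes of the deposited count table. Single-cell libraries had been made from testis of C57BL/6J mice aged 6 to 8 weeks, with no genetic change named in the labels. There were 20 cells labelled Metaphase I, which were set against 20 cells labelled Pachytene. Per the labels' protocols, spermatocytes were separated by size in a centrifugal elutriator. Okadaic acid, an inhibitor of the phosphatases PP1 and PP2A, was then applied in culture at 4 µM for 5 h to bring the cells on to metaphase I. The same protocol text stands on all 40 cells, so stage, drug and time in culture cannot be told apart, and the sources used here do not give whether Pachytene cells also spent time in culture.

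Male germ cells enter a long meiotic prophase, whose pachytene stage carries a broad wave of transcription, and then divide into round spermatids that start a further programme of their own. A small set of factors drives these waves in sequence. A-MYB, the product of Mybl1, activates meiotic genes and the precursors of pachytene piRNAs, the small RNAs that guide PIWI proteins, and TCFL5 and BRDT act in the same cells. RFX2, SOX30 and CREM act on genes of the spermatid and its flagellum, and their transcripts already accumulate during meiosis.

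No animal, donor or culture is named in the labels. The 20 cells of a group were therefore taken as 1 sample, no test between the groups was made, and every comparison is a description of these cells. Levels are CPM, the counts of a gene per 1000000 counts of the cell. A group's level is its summed count over its summed total, and a fold is Metaphase I over Pachytene with a 95% exact conditional binomial interval that covers counting error only, not the spread between cells or animals. The totals ran from 198117 to 1497037 counts per Metaphase I cell (median 540662) and from 165048 to 2325564 per Pachytene cell (median 730979). All 10 markers fixed for pachytene cells had counts, and their summed level had a median of 27021 CPM in Metaphase I and 27363 CPM in Pachytene.

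In 8 libraries, 4 of each group, X-linked genes took over 0.3% of the counts. These were Metaphase I replicates 3, 7, 17 and 19 and Pachytene replicates 2, 3, 7 and 19. In 7 of them the summed level of 8 round spermatid markers was 1317 CPM or more, against at most 244 CPM in the remaining Metaphase I cells and at most 467 CPM in the remaining Pachytene cells. Over 10 elongating spermatid markers the split was not clean. The same 7 had 907 CPM or more, and the remaining cells reached 552 CPM in Metaphase I and 1218 CPM in Pachytene. The cells left are therefore not free of spermatid markers. The exception to the round spermatid split was Metaphase I replicate 19, which had 71.0 CPM of those 8 markers. It had 14270 CPM over 10 Sertoli cell markers, although Amh, Rhox5 and Gata4 of that list were at 0. Sertoli markers were not confined to it. Metaphase I replicates 13, 14, 15, 16, 18 and 20, which are not among the 8, had 24.5 to 226 CPM of them. Among the 8, Pachytene replicate 7 had 148 CPM of them and Metaphase I replicate 17 had 80.6 CPM. That Pachytene library held 94.7% of the 227 Pachytene counts of Defb19 and all 104 of Cst12, 2 genes of the list. The Pachytene cells outside the 8 had at most 6.06 CPM of Sertoli markers. The folds of the 10 genes, and the medians of the gene lists, are also given without these 8 libraries, which leaves 16 cells in each group.

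The 6 genes Mybl1, Tcfl5, Brdt, Rfx2, Crem and Sox30 had a count in all 20 Metaphase I cells and all 20 Pachytene cells. Their summed levels differed by less than 2-fold between the groups. Per kilobase of exon, Brdt stood highest in Metaphase I at 61.8 CPM per kb, followed by Crem at 56.7, Tcfl5 at 39.3, Rfx2 at 23.9, Sox30 at 13.5 and Mybl1 at 11.9 CPM per kb. In Pachytene the order began with Crem at 71.6 CPM per kb, followed by Brdt at 48.5, Tcfl5 at 41.0, Rfx2 at 21.3, Sox30 at 15.2 and Mybl1 at 8.70 CPM per kb. Brdt stood above Crem in Metaphase I on this scale alone. In CPM, Crem was above Brdt in both groups, at 334 against 316 CPM in Metaphase I and 422 against 248 CPM in Pachytene. The per-cell values of each of these genes overlapped those of its neighbours in the order. The remaining genes were lower, at 4.52 for Egr4, 2.38 for Ovol1, 2.00 for Msx2 and 1.04 for Fev in Metaphase I, against 1.16, 2.52, 0.224 and 3.96 CPM per kb for the same genes in Pachytene. Because the libraries hold the 3′ ends of transcripts, a level per kilobase can understate long genes.

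Upstream sequence is shown for Tcfl5, Rfx2, Sox30 and Brdt, the genes with a count in every cell that the RefSeq promoter table held (7 of the 10 genes matched, Mybl1, Ovol1 and Crem being the others). Each line gives 215 bases on GRCm38.p6, from 250 to 36 bases before the RefSeq start of transcription, 5′ to 3′ on the strand of the gene. Capitals mark matches, on either strand, to the MYB cores AACNG and CAGTT, the partial cyclic AMP response element TGACG, the partial X-box GTTGCC, the E-boxes CACGTG and CACGCG, the OVOL core CCGTTA and the EGR core GCGTGGG. The windows are chr2:180642727-180642941 (minus strand) for Tcfl5, chr17:56831044-56831258 (minus strand) for Rfx2, chr11:45980060-45980274 (plus strand) for Sox30 and chr5:107330944-107331158 (plus strand) for Brdt.
Tcfl5: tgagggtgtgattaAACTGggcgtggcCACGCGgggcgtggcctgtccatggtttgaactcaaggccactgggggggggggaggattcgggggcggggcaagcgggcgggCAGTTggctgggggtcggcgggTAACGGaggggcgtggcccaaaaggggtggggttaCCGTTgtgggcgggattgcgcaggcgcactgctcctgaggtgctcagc
Rfx2: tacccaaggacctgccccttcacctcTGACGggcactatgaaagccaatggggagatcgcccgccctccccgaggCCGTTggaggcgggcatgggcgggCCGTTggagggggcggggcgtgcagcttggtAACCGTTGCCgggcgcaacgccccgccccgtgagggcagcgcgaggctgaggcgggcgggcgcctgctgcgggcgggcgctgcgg
Sox30: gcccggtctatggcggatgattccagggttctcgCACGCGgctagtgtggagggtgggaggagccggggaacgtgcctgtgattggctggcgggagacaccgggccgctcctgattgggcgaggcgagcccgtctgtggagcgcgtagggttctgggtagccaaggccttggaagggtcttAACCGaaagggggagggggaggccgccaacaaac
Brdt: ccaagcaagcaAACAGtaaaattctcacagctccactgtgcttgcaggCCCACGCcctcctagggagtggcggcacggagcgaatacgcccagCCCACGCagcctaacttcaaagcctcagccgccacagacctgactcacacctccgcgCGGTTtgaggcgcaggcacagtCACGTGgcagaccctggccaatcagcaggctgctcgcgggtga
The MYB core AACNG was matched 4 times in the Tcfl5 window, 4 times in that of Rfx2, once in that of Sox30 and 2 times in that of Brdt. It is a short motif, present in 69.0% of all 32851 windows of this length. The Tcfl5 window also held CAGTT in 2 places, each on the same bases as an AACNG match, and CCGTTA once, overlapping an AACNG match. CCGTTA was the rarest of the matched motifs, found in 1.85% of windows. GCGTGGG was matched 2 times for Brdt and is found in 3.61% of windows, and GTTGCC overlaps an AACNG match in the Rfx2 window and is found in 8.71%. CACGTG stood once in the Brdt window (4.84% of windows), CACGCG once for Tcfl5 and once for Sox30 (6.30%), and TGACG once for Rfx2 (14.4%). The full element TGACGTCA, the SOX core ACAAT and the MSX core TAATT, also searched, were not matched in these 4 windows. A match is a run of letters and does not show that a factor binds there.

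Mybl1 encodes A-MYB and lies on chromosome 1 from 9667415 to 9700209 (GRCm38, minus strand). Its level per cell ran from 7.54 to 170 CPM in Metaphase I (median 61.1) and from 10.3 to 164 CPM in Pachytene (median 41.1). The ranges overlapped almost completely, with the highest cells being Metaphase I replicate 18 and Pachytene replicate 5. The summed level was 1.37-fold higher in Metaphase I (95% interval 1.25 to 1.51, from 885 and 830 counts), and 1.21-fold higher (1.09 to 1.34) without the 8 libraries. Without Pachytene replicate 6, which held 22.3% of the Pachytene counts, the fold was 1.54. Its Spearman correlation with the summed Sertoli markers was 0.41 over 40 cells and 0.66 over the 32 without the 8 libraries, and with the summed pachytene markers it was -0.11 and -0.55. Those marker counts share the libraries and depths of Mybl1, and their part in its level was not tested. The genes with the most similar pattern over the 40 cells were Mapkap1 (Spearman 0.73), Golga1 (0.64) and Birc6 (0.63), out of 9596 genes compared. Over the 32 cells these values were 0.70, 0.44 and 0.50.

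Tcfl5 encodes a basic helix-loop-helix factor of spermatocytes and lies on chromosome 2 from 180621956 to 180642708 (minus strand). It ran from 32.7 to 253 CPM in Metaphase I (median 121) and from 45.3 to 215 CPM in Pachytene (median 135). The highest cells were Metaphase I replicates 12, 4, 11 and 8 and the lowest was Metaphase I replicate 18, so the Pachytene range lay within that of Metaphase I. The summed level in Metaphase I was 0.958 of that in Pachytene (0.899 to 1.02), and 0.918 (0.858 to 0.982) without the 8 libraries. The genes closest to it in pattern were Sec22a (Spearman 0.78), Ppp3ca (0.78) and Slc29a1 (0.74), and the same 3 genes came first over the 32 cells. Tcfl5 shares exon bases with Col9a3 on the opposite strand, which had 16 counts in all.

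Brdt encodes a testis-specific protein of the BET family, which reads acetylated histones through paired bromodomains. The gene spans chromosome 5 from 107331159 to 107387058 (plus strand). Its level ran from 99.4 to 687 CPM in Metaphase I (median 261) and from 95.4 to 769 CPM in Pachytene (median 224). The highest cells were again Metaphase I replicate 18 and Pachytene replicate 5, both shallow libraries, at 336147 and 165048 counts. In the sums Brdt was 1.28-fold higher in Metaphase I (1.22 to 1.33, from 4337 and 4382 counts) and 1.30-fold higher without the 8 libraries. Without Metaphase I replicate 13, which held 18.8% of the Metaphase I counts, the fold was 1.16. Over the 40 cells Brdt was closest to Atr, a kinase of the meiotic checkpoint (Spearman 0.79), Tdrd1, a tudor protein of the piRNA pathway (0.78), and Prc1, a protein of the central spindle (0.78). Over the 32 cells these values were 0.76, 0.69 and 0.71.

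Ovol1 encodes a zinc finger repressor that is needed in mice for spermatocytes to pass pachytene, where Id2 is among its targets. Its position is chromosome 19 from 5549136 to 5560646 (minus strand). A count was found in 18 of 20 Metaphase I cells and 14 of 20 Pachytene cells, and in 13 of 17 and 13 of 19 once each cell was thinned to 340000 counts. Its level ran from 0 to 22.1 CPM in Metaphase I (median 5.19) and from 0 to 33.7 CPM in Pachytene (median 7.79). The groups overlapped throughout, and the fold of 0.948 had an interval of 0.737 to 1.21. It was 0.931 (0.718 to 1.21) without the 8 libraries. Ovol1 shares exon bases on the opposite strand with Gm31166, which had 153 counts, and 1810058N15Rik, which had 141 counts, so without a stated strand setting its 114 Metaphase I and 155 Pachytene counts cannot be told apart from theirs.

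**Figure D1:**
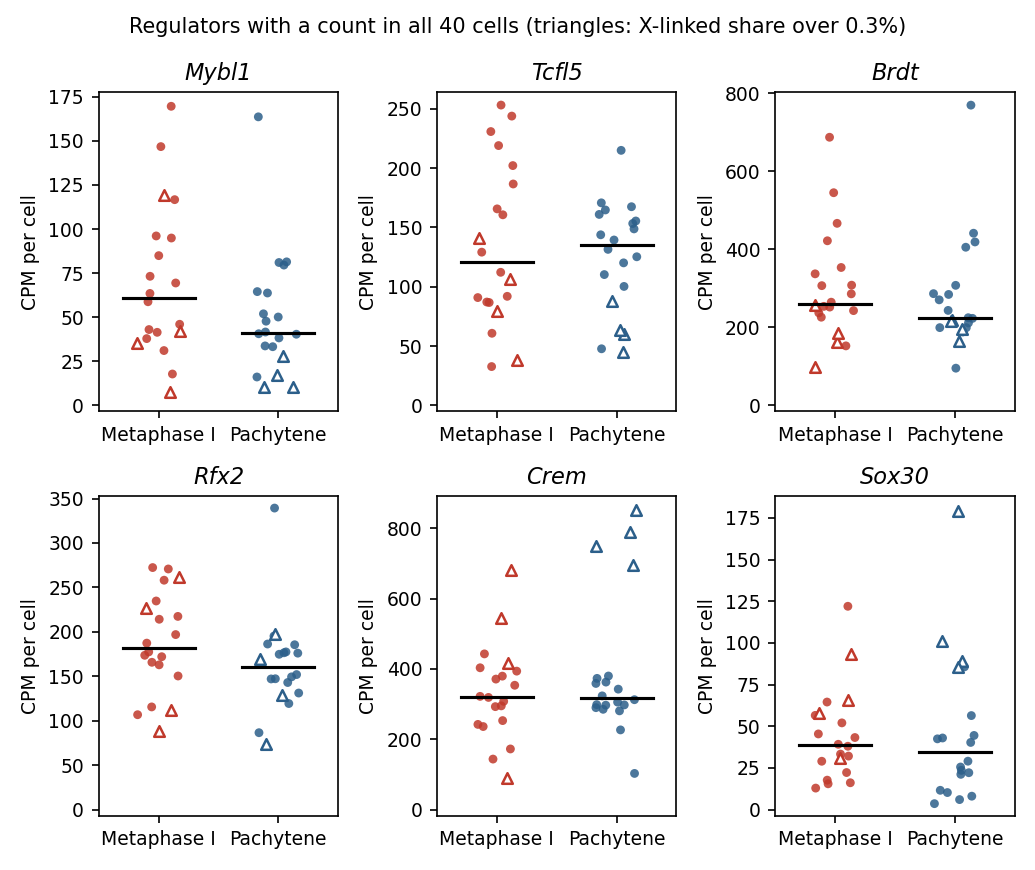
CPM per cell of the 6 regulators with a count in all 40 cells, Metaphase I left and Pachytene right in each panel. Each point is 1 cell, the bar is the group's median, and open triangles are the 8 libraries with an X-linked share over 0.3%. All 6 genes overlap between the groups, and 4 Pachytene triangles stand at 697 CPM or more for Crem.

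Rfx2 encodes a winged-helix factor of the RFX family that controls ciliary and flagellar genes in spermatids. It lies on chromosome 17 from 56775897 to 56831013 (minus strand). Cells ran from 88.0 to 272 CPM in Metaphase I (median 182) and from 73.5 to 339 CPM in Pachytene (median 161). The groups overlapped, and the highest cell was Pachytene replicate 5. The summed level was 1.12-fold higher in Metaphase I (1.06 to 1.18) and 1.15-fold higher without the 8 libraries. Of the 10 genes, Rfx2 had the correlation with the total count that was largest in size over 40 cells, a Spearman value of -0.47. Its nearest genes in pattern were AC159819.1 (Spearman 0.66), Ccnk (0.62) and Tdrd6 (0.58), with 0.64, 0.41 and 0.52 over the 32 cells.

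Crem encodes the cyclic AMP response element modulator, whose activator forms switch on spermatid genes and whose short forms repress. Its exons span chromosome 18 from 3266048 to 3337748 (minus strand). GENCODE M21 lists 39 transcripts of it, 32 of them coding, and the count per gene does not tell activator from repressor forms. The level ran from 90.9 to 683 CPM in Metaphase I (median 321) and from 103 to 853 CPM in Pachytene (median 318). The medians lay close together while the sums did not, with 4580 counts in Metaphase I and 7454 in Pachytene giving a level 1.26-fold lower in Metaphase I (1.22 to 1.31). Crem also shares exon bases with Gm6225 on the opposite strand, which had 289 counts.

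The highest Crem cells were libraries with a high X-linked share. Pachytene replicates 19, 2, 7 and 3 had 853, 790, 750 and 697 CPM, and Metaphase I replicates 3, 7 and 17 had 683, 545 and 418 CPM. The highest of the remaining cells had 443 CPM in Metaphase I and 380 CPM in Pachytene. Replicate 19 of Metaphase I, the library highest in Sertoli markers, was the lowest of all 40 at 90.9 CPM. Without the 8 libraries the fold was 0.970, with an interval of 0.928 to 1.01, and without Pachytene replicate 7 alone, which held 23.4% of the Pachytene counts, it was 0.897. Round spermatid markers moved with Crem across cells, with a Spearman correlation of 0.49 over 40 cells and 0.14 over the 32, and their part in the level was not tested.

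Mybl1 was low in 5 of those libraries. Pachytene replicates 19, 2, 7 and 3 had 10.3, 10.5, 17.2 and 28.2 CPM of Mybl1, and Metaphase I replicate 3 had 7.54 CPM, the lowest of all 40 cells. The ratio of Crem to Mybl1 counts in a cell ran from 0.762 to 90.6 in Metaphase I (median 4.87) and from 0.630 to 83.2 in Pachytene (median 6.94). Without the 8 libraries it ran from 0.980 to 17.3 in Metaphase I and from 0.630 to 23.6 in Pachytene. The Spearman correlation of Crem with Mybl1 was -0.63 over 40 cells and -0.37 over 32 cells. Since CPM values of a cell share 1 total, this is given as a description. The genes closest to Crem in pattern were Actr10 (Spearman 0.81), Tmod2 (0.74) and Tekt2, a tektin of the sperm flagellum (0.74). Over the 32 cells these values were 0.69, 0.51 and 0.50, Tmod2 and Tekt2 stood at places 117 and 133, and 4933412E12Rik (0.74) and Czib (0.73) came first.

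**Figure D2:**
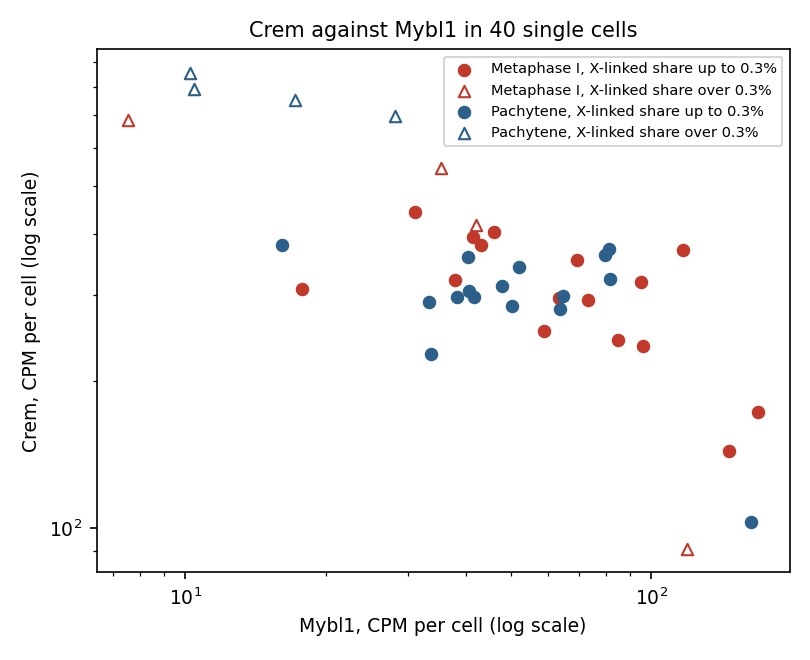
Crem against Mybl1 in CPM per cell, both on log axes, with 1 point for each of the 40 cells, red for Metaphase I and blue for Pachytene. Open triangles, the libraries with an X-linked share over 0.3%, fill the upper left, where Crem is 545 CPM or more, except for Metaphase I replicates 17 (418 CPM) and 19 (90.9 CPM).

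Sox30 encodes an SRY-box factor required in mice for round spermatids to develop. It lies on chromosome 11 from 45980310 to 46017994 (plus strand). Its level ran from 13.0 to 122 CPM in Metaphase I (median 38.6) and from 3.62 to 179 CPM in Pachytene (median 34.7). The groups overlapped, and the Pachytene cells held both the lowest and the highest value. The summed level in Metaphase I was 0.890 of that in Pachytene (0.797 to 0.993, from 556 and 805 counts), but it was 1.27-fold higher in Metaphase I (1.11 to 1.46) without the 8 libraries. Leaving out Pachytene replicate 7 alone, which held 25.7% of the Pachytene counts, also turned the fold, to 1.04. Pachytene replicates 3, 2, 7 and 19 had 179, 101, 89.0 and 85.4 CPM, and Metaphase I replicates 17, 7, 19 and 3 had 93.4, 65.6, 58.2 and 31.2 CPM. Cells outside the 8 reached similar levels, up to 122 CPM in Metaphase I replicate 18 and 85.6 CPM in Pachytene replicate 12. Sox30 had a Spearman correlation of 0.51 with the round spermatid markers over 40 cells and 0.27 over the 32, and the part of those markers was not tested. Its pattern was closest to those of Ttc41 (Spearman 0.73), Pnpla8 (0.72) and Klhl12 (0.69), with 0.60, 0.60 and 0.61 over the 32 cells.

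Egr4, Fev and Msx2 were sparse, and they were the 3 genes whose summed levels differed by over 2-fold. Egr4 and Msx2 were higher in Metaphase I, where 8.49% of the 16174 genes with at least 20 counts in all were over 2-fold higher. Fev was lower in Metaphase I, where 9.81% of those genes were over 2-fold lower. Without the 8 libraries the same 3 genes were past 2-fold in the same directions, against 6.32% higher and 4.13% lower among 13451 genes. Here over 2-fold means a log2 ratio beyond 1 with 1 CPM added to each group. With cells thinned to 340000 counts, or with 10 CPM added, 0 of the 10 genes were past it in either direction. Thinning also dropped Metaphase I replicate 18, which had 336147 counts. That cell held 61 of the 90 Metaphase I counts of Msx2 and was the highest for Egr4, so its loss and equal depth cannot be told apart there. Counts of 2 and 1 among 10 genes are too few to be set apart from these shares. The median log2 ratio of the 10 genes was 0.05, beside -0.00 over all genes, and it was 0.23, beside 0.03, without the 8 libraries.

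Egr4 encodes a zinc finger factor of the early growth response family whose loss in mice impairs male fertility. It lies on chromosome 6 from 85511121 to 85513589 (minus strand). A count was found in 10 of 20 Metaphase I cells and 11 of 20 Pachytene cells. Its level ran from 0 to 68.4 CPM in Metaphase I (median 0.710) and from 0 to 19.6 CPM in Pachytene (median 0.868). The sums gave a 3.89-fold higher level in Metaphase I (2.75 to 5.61, from 133 and 44 counts), while the medians were in the opposite order. The fold was 3.79 (2.66 to 5.51) when the 8 libraries were left out. The medians were then 3.63 CPM in Metaphase I and 1.09 CPM in Pachytene, in the order of the sums. In Metaphase I, replicates 18, 14, 20, 13, 15 and 1 had 68.4, 24.5, 18.7, 16.0, 15.9 and 11.4 CPM, and the remaining cells had 5.18 CPM or less. In the same order, these replicates had 226, 24.5, 31.6, 56.1, 37.1 and 0 CPM of the summed Sertoli markers. Replicates 16, 17 and 19, with 120, 80.6 and 14270 CPM of those markers, had 0, 0 and 1.42 CPM of Egr4. The part of the Sertoli markers' source in the Egr4 level was not tested. Among Pachytene cells, replicates 13 and 10 had 19.6 and 10.7 CPM, and the remaining cells had 5.30 CPM or less. Without Pachytene replicate 13, which held 38.6% of the Pachytene counts, the fold was 6.03 (3.97 to 9.50). The cells with a count were similar in number in both groups. Pachytene replicate 13, at 19.6 CPM, stood above all Metaphase I cells but replicates 18 and 14. Egr4 had a Spearman correlation with Tcfl5 of -0.31 over 40 cells and -0.60 over the 32.

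Fev encodes an ETS factor best known from serotonergic neurons. The gene spans chromosome 1 from 74881509 to 74885419 (minus strand). A count was seen in 7 Metaphase I cells and 13 Pachytene cells, and after thinning 4 of 17 and 10 of 19 did. Its level ran from 0 to 14.1 CPM in Metaphase I (median 0) and from 0 to 28.7 CPM in Pachytene (median 1.85). It was 3.81-fold lower in Metaphase I (2.42 to 6.26, from 23 and 113 counts). The difference was 9.11-fold (4.61 to 20.5, from 9 and 99 counts) without the 8 libraries. Metaphase I replicates 17, 19 and 3, which this leaves out, held 6, 7 and 1 of the 23 Metaphase I counts. Pachytene replicates 9, 11 and 6 had 28.7, 25.7 and 19.3 CPM. Without replicate 6, which held 44 of the Pachytene counts, the level was 2.67-fold lower in Metaphase I (1.65 to 4.49).

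Msx2 encodes a homeobox repressor known from limb and skull development and induced by BMP signals. Its position is chromosome 13 from 53466884 to 53473074 (minus strand). A count was found in 12 of 20 Metaphase I cells (60.0%, exact 95% interval 36.1 to 80.9) and 4 of 20 Pachytene cells (20.0%, 5.73 to 43.7). These 2 intervals take the cells as independent draws and are not a test between the groups. After thinning, which dropped Metaphase I replicate 18, a count was found in 5 of 17 and 2 of 19. No library came from a cell type known to lack the gene, so a background share was not measured. Its level ran from 0 to 181.5 CPM in Metaphase I (median 1.57) and from 0 to 8.32 CPM in Pachytene (median 0). The summed level was 8.92-fold higher in Metaphase I (4.96 to 17.4, from 90 and 13 counts), and 8.27-fold higher (4.59 to 16.1) without the 8 libraries. Replicate 18 alone held 61 of the 90 Metaphase I counts, and without it the fold was 2.95 (1.48 to 6.17) and the log2 ratio 0.87. Without Pachytene replicate 17, which held 6 of the 13 Pachytene counts, the fold was 15.9 (7.40 to 40.6).

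**Figure D3:**
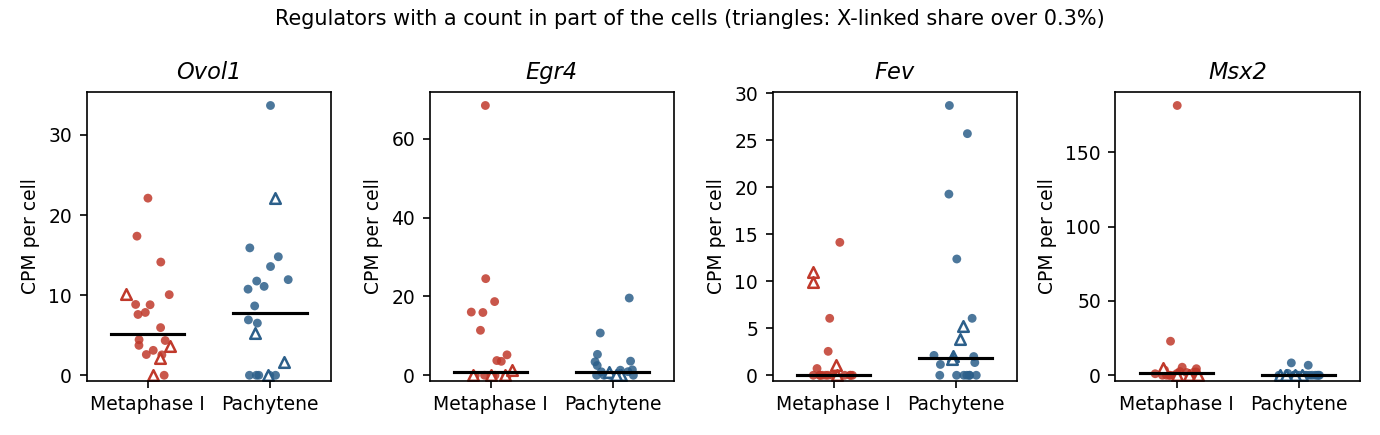
CPM per cell of the 4 regulators with a count in only part of the cells, Metaphase I left and Pachytene right, with points, bars and triangles as in the plot of the 6 abundant genes. Most cells lie at or near 0 for Egr4, Fev and Msx2, while Ovol1 has medians of 5.19 CPM in Metaphase I and 7.79 CPM in Pachytene. The same Metaphase I cell stands at 68.4 CPM for Egr4 and at 181.5 CPM for Msx2.

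The cell that stood highest for Egr4 and Msx2 was the same one. Metaphase I replicate 18 was the highest Metaphase I cell for Mybl1, Brdt, Sox30, Egr4 and Msx2 and the lowest of all 40 cells for Tcfl5. It had 10739 CPM of the 10 pachytene markers, the lowest of the 40 cells, and 226 CPM of Sertoli markers, with a total of 336147 counts. Among Pachytene cells, replicate 5, the shallowest, was highest for Mybl1, Brdt and Rfx2 and lowest for Crem. The part of marker levels and depth in these extremes was not tested.

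**Figure D4:**
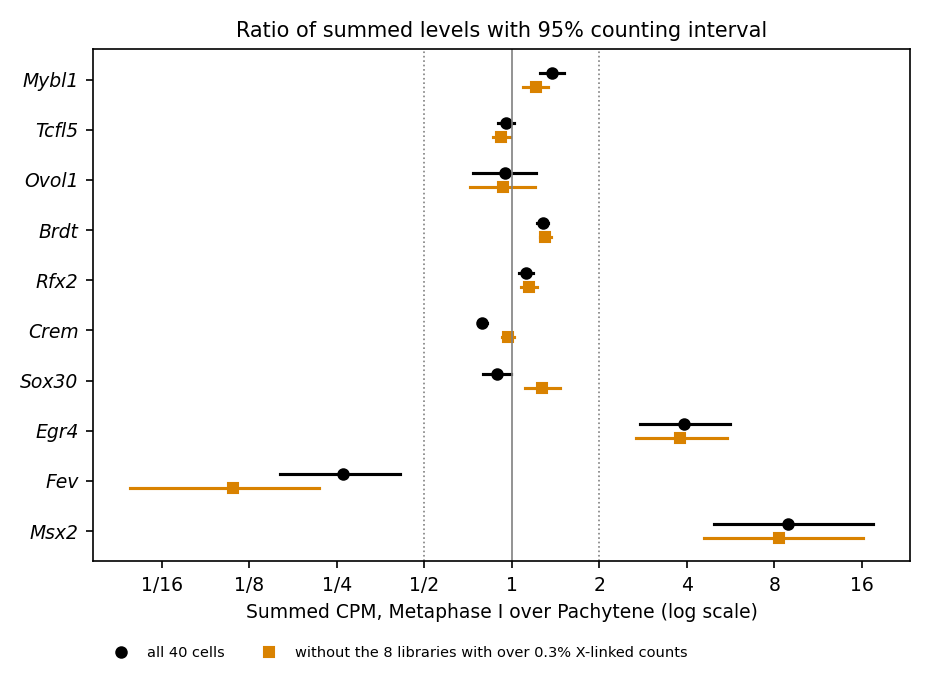
Ratio of summed CPM, Metaphase I over Pachytene, on a log axis for the 10 regulators, with 95% counting intervals. Black points use all 40 cells and orange squares leave out the 8 libraries with an X-linked share over 0.3%. Egr4 (3.89) and Msx2 (8.92) lie right of the 2-fold line, Fev (3.81-fold lower) lies left of it, and Sox30 changes side when the 8 libraries are left out.

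Relatives of these genes were read from fixed lists, where a gene was measured if it had at least 20 counts in all. Of 31 family members, 22 were measured, with a median log2 ratio of 0.15. In Metaphase I, 4 were over 2-fold higher and 4 over 2-fold lower, beside 8.49% and 9.81% of all measured genes. The higher ones were Sox9, Sox4, Egr1 and Rfx7, and the lower ones were Sox5, Creb3l4, Rfx1 and Mybl2. Without the 8 libraries 18 were measured, and the median was 0.02. Rfx7 alone was higher at 1.02 and Etv5 alone lower at -1.65, beside 6.32% and 4.13% of all measured genes. Brd2 and Brd3, widely expressed relatives of Brdt, had log2 ratios of 0.23 and 0.20. Rfx8 was the most abundant RFX relative, with 2339 and 2186 counts in Metaphase I and Pachytene. Its summed level was 170.6 CPM in Metaphase I and 123.8 CPM in Pachytene, against 174.7 and 156.1 CPM for Rfx2. Per kilobase Rfx8 stood above Rfx2, at 79.8 CPM per kb in Metaphase I and 57.9 CPM per kb in Pachytene. Ovol2 was far above Ovol1, at 96.9 CPM per kb in Metaphase I and 131 CPM per kb in Pachytene, with a log2 ratio of -0.43.

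Several relatives rested on single libraries. Sox9, Sox4 and Egr1 had 534, 249 and 126 counts in Metaphase I and 1, 5 and 3 in Pachytene, and Metaphase I replicate 19 held 99.3%, 98.4% and 95.2% of their Metaphase I counts. Etv5 had 32 counts in Metaphase I, 93.75% of them in replicate 19. Its 37 Pachytene counts came from 2 cells, with 75.7% in replicate 6, so its ratio without the 8 libraries rests on few cells. Creb3l4, a relative of Crem, had a log2 ratio of -1.37, and -0.96 without the 8 libraries. Mybl2 had 25 counts in Metaphase I and 97 in Pachytene, a log2 ratio of -1.20 that was -0.24 without the 8 libraries. Myb, Msx1, Msx3, Egr2, Rfx6 and Erg were at 0 in all 40 cells.

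Genes that act downstream of or beside the regulators were described in the same way. Of 11 measured piRNA pathway genes, a set that A-MYB activates, 0 were past 2-fold, and their median log2 ratio was 0.43. It was 0.39 without the 8 libraries, where 1 gene, Tdrkh, was past 2-fold at 1.00. With all cells the largest were Tdrkh at 0.87, Tdrd1 at 0.78 and Mov10l1 at 0.73, and Metaphase I replicate 13 held 43.5% of the Metaphase I counts of Tdrkh. Of 12 intraflagellar transport and axoneme genes of the kind RFX2 controls, 0 were past 2-fold either, with a median of 0.17, or 0.14 without the 8 libraries. Ift88 had the largest ratio there, 0.67. The 5 elongation and chromatin partners of BRDT-type proteins had a median of 0.25, or 0.04 without the 8 libraries, and 0 were past 2-fold, Ccnt2 being the largest at 0.43. Counts of 0 or 1 in lists of 5 to 12 genes are too few to be set apart from the shares over all genes.

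Spermatid genes that need CREM were mostly lower in Metaphase I. Of 6 measured, 4 were over 2-fold lower, beside 9.81% of all genes, with a median log2 ratio of -1.49. Without the 8 libraries 2 were, beside 4.13% of all genes, with a median of -0.79. These 2 were Prm2 at -1.58 and Tnp1 at -1.28. Pachytene replicate 1, which is not among the 8, held 42.7% of the Pachytene counts of Prm2. All 6 genes are also in the list of elongating spermatid markers, of which 8 of 10 were over 2-fold lower with a median of -1.49, and 5 of 8 round spermatid markers were, with a median of -1.24. These medians were -0.74 and -0.52 without the 8 libraries, and the part of the spermatid markers' source was not tested. Odf1, a protein of sperm outer dense fibres, had 220 counts in Metaphase I and 935 in Pachytene. Smcp, of the sperm mitochondrial sheath, had 2407 and 9354 counts, and Tnp1, a transition protein, had 181 and 733 counts, in Metaphase I and Pachytene. Metaphase I replicate 3 and Pachytene replicate 7 were the largest source of all 3, holding 75.9% and 57.6% of the Smcp counts of their groups. Of 9 cofactors of CREM, 2 were over 2-fold lower, beside 9.81% of all genes. They were Taf7l with a log2 ratio of -1.57 and Fhl5, an activator of CREM in spermatids, with -1.06. The list's median was -0.23. Without the 8 libraries 7 were measured and 1, Fhl5 at -1.05, was lower, beside 4.13% of all genes, with a median of 0.11. Metaphase I replicate 3 held 92.3% of the 297 Metaphase I counts of Fhl5, and Pachytene replicate 7 held 51.6% of its 816 Pachytene counts. Taf7l had 30 counts in Metaphase I and 150 in Pachytene, from 5 cells of each group.

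Targets and corepressors of OVOL1 and EGR proteins were sparse. Of 7 Id, Nab and Myc genes 5 were measured, and 3 were over 2-fold higher in Metaphase I, beside 8.49% of all measured genes. The median log2 ratio was 1.76, the value of Id3. Id2, a target of OVOL1, had 71 counts in Metaphase I and 0 in Pachytene, and Nab1 had 44 and 1. Metaphase I replicate 19, with its Sertoli markers, held 98.6% of the Id2 counts, 92.1% of those of Id3 and 72.7% of those of Nab1. Without the 8 libraries 2 of the genes were measured and 0 were past 2-fold. The part of the Sertoli markers' source in these counts was not tested.

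Among 12 further measured factors of male meiosis, 0 were past 2-fold, beside 8.49% of all measured genes higher and 9.81% lower. Their median log2 ratio was -0.02, or 0.18 over 8 genes without the 8 libraries. Tesmin and Hsf2 had the largest ratios, 0.83 and -0.82, and Hsf2 stood at 0.24 without the 8 libraries. Of 8 factors of spermatogonia and early germ cells, 1 was measured, Zbtb16, with 7 counts in Metaphase I and 23 in Pachytene, of which Pachytene replicate 7 held 91.3%. Sohlh1, Sohlh2 and Sall4 were at 0 in every cell.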

How the data were processed

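Whole-number counts per gene in 40 single-cell libraries were analysed as deposited. Per the labels' protocols they come from a modified STRT-seq method that keeps 3′ ends. UMI-tools, STAR, featureCounts and GRCm38 are named in the submitters' processing notes. The sources used here do not say if PCR copies were collapsed into molecules, how strand was treated or which annotation was counted. Gene positions are 1-based from the deposited table, and all 10 genes have the same span in GENCODE M21.

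Each library is 1 cell and each group was taken as 1 sample, so no test was made. Counts were summed per group and divided by the summed total. Log2 ratios used a pseudocount of 1 CPM. Folds have conditional binomial intervals, exact at 95%, which cover counting error only and are too narrow if counts are reads. Shares of cells have Clopper-Pearson intervals, exact at 95%. These take the cells of a group as independent draws, which the labels do not establish, and do not cover the spread between animals. The ratio and interval code was tested on simulated data. All 780 pairs of libraries differed beyond sampling noise, by a chi-square of 3.14 or more per degree of freedom. Genes similar to a member were taken by Spearman correlation over 40 cells among genes with at least 100 counts and a count in 20 or more cells. For detection, cells were thinned to 340000 counts, which kept 17 Metaphase I and 19 Pachytene cells. Metaphase I replicates 6, 7 and 18 and Pachytene replicate 5 had fewer counts and were left out. Doublets were not called on 40 cells. The genes and lists were chosen with earlier results of these data known. Up to 3 genes per list, with the largest ratios, are named, and in paralog lists also the most abundant. Other genes named as past 2-fold, as at 0 or for their share of counts in 1 library were picked with their values in view. Of the list symbols, 2 were not matched in the table. The values of 1 listed gene are not reported here.

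Promoters are RefSeq's on GRCm38.p6. Alternatives were other scalings (TMM from edgeR 4.0.16, mean or median over cells, totals without mitochondrial and ribosomal protein genes), limits, pseudocounts, thinning and leaving out libraries. Python 3.11.15, numpy 2.4.6, pandas 2.3.3, scipy 1.17.1, matplotlib 3.10.9 and R 4.3.3 were used.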

Additional observations from a re-analysis of the deposited data

How the results depend on the processing

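Of 480 recomputed log2 ratios of the 10 genes, 450 moved by no more than the width of one side of their 95% counting interval and the remaining ones further. Of the 3 genes past 2-fold, Egr4 turned in sign, from 1.62 to -0.13, when medians over cells replaced sums. The 2 genes over 2-fold higher in Metaphase I became 1 with medians over cells, and 0 with a pseudocount of 10 CPM or with thinned cells. The thinned cells leave out Metaphase I replicate 18. Leaving out 1 library at a time gave 1 to 2, the lower value without Metaphase I replicate 18. The 1 gene over 2-fold lower became 0 with a pseudocount of 10 CPM or with thinned cells. Over all genes, 8.49% were over 2-fold higher, against 5.55% with at least 100 counts and 0.884% with a pseudocount of 10 CPM. The share over 2-fold lower was 9.81%, against 6.22% with at least 1 count, 1.58% with a pseudocount of 10 CPM and 4.13% without the 8 libraries. The cause was not tested. Signs also turned among genes under 2-fold. Crem had a log2 ratio of -0.34 from sums and 0.01 from medians, Sox30 -0.16 with all cells and 0.34 without the 8 libraries, Tcfl5 -0.06 and 0.22 with thinned cells, and Ovol1 -0.07 and 0.08 without Pachytene replicate 10. Egr4, Fev and Msx2 rest on few counts per cell, which limits what their levels can show. No paired analysis was possible because replicate numbers only name cells and each group is 1 sample without a test.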
